A study of Danio rerio with 246 samples.

Results

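The genes described here are the sensors, transcription factors and feedback inhibitors of innate immune and cytokine signalling in zebrafish kidney marrow. They were chosen by symbol: interferon regulatory factors (irf with a number, which also takes in 4 genes of IRF2-binding proteins), STAT factors (the stat5 genes not included), suppressors of cytokine signalling (socs), Toll-like receptors (tlr), and the NF-kB genes nfkb1, nfkb2, rel, rela and relb. The rule found 56 of the 21876 genes in the count table: 13 IRF genes, 4 IRF2-binding protein genes, 6 STAT, 12 SOCS, 16 TLR and 5 NF-kB genes. Together they held 0.209% of all reads.

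The study asked for the transcriptional profiles of blood and kidney cells in the zebrafish kidney marrow, the organ in which adult fish make blood. Single cells of fluorescent reporter fish were sorted into plates and sequenced with a modified Smart-seq2 protocol, which reads whole messenger RNA from 1 cell at a time. Each sample is 1 cell, and the 246 cells come from 6 groups: 39 Runx123_GFP, 43 cd41_GFPlow, 47 mpx_EGFP, 48 rag2_GFP, 38 lck_GFP and 31 lck_GFP_rag1 cells. The labels give no treatment, strain, age or allele and do not say which animals the cells came from. Each group therefore counts as 1 sample, differences between groups have no replicate check, and no p-value was made. By the reporters' names, cd41, the integrin of thrombocytes and early progenitors, mpx, the neutrophil peroxidase, rag2, the recombinase of developing lymphocytes, and lck, a T cell kinase, mark the sorted cells. The labels do not say what Runx123 or the ending rag1 stand for.

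Toll-like receptors bind microbial molecules at the cell surface or inside endosomes and signal through adaptors to NF-kB and to interferon regulatory factors. Interferons and other cytokines then act through receptors, JAK kinases and STAT factors, and SOCS proteins are made in response and shut that signal down. Several members also direct blood development without infection: Irf8 sets macrophage over neutrophil fate in zebrafish, and in mammals IRF4 and the NF-kB subunits shape lymphocytes.

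Levels are in CPM: all reads of a gene in a line's cells, as a share of the line's reads, scaled to a total of 1000000, with 95% exact Poisson intervals. A cell was counted as having a gene at 10 CPM or more in that cell, and shares of cells have 95% Clopper-Pearson intervals. Where no cell had a gene, the limit given is 3 cells of the number counted. Reads amplified by PCR are not separate molecules and no molecular identifiers are named, so the intervals and limits cover counting error only. Reads per cell ran from 47630 to 2969770 and detected genes from 516 to 4901. Each line sat on 1 plate, and only rag2_GFP and lck_GFP shared a plate, so for every other comparison line and plate cannot be told apart. Detected genes also differed with line: the median was 782 in rag2_GFP, 925 in lck_GFP and 1065 in lck_GFP_rag1, against 1606 in mpx_EGFP, 2295 in Runx123_GFP and 2804 in cd41_GFPlow.

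Marker lists placed the lines as follows, with a cell counted for a list at 3 or more of its genes at 10 CPM. The B cell list was met by 45 of 48 rag2_GFP cells, the T cell list by 35 of 38 lck_GFP cells and the list of natural killer and cytotoxic genes by 28 of 31 lck_GFP_rag1 cells. The natural killer and cytotoxic list was also met by 9 of 38 lck_GFP cells. All 47 mpx_EGFP cells met the neutrophil list, and 11 of them also met the progenitor list. Runx123_GFP cells met the thrombocyte list in 27, the progenitor list in 25 and the erythroid list in 15 of 39 cells. cd41_GFPlow was mixed: 21 of 43 cells met the progenitor list, 17 the monocyte and macrophage list, 13 the neutrophil list and 9 the B cell list. The thrombocyte list was met by 2, in a line whose name gives low GFP.

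Of the 56 genes, 47 were measured, meaning that they reached 10 CPM in at least 1 line, and 33 of these were also found in at least 5 cells of such a line, of which 31 are given in full. The other 14 measured genes had top levels of 13.8 to 76.6 CPM, and the 9 remaining genes stayed at or under 8.34 CPM in every line. Only 7 genes reached 10 CPM in all 6 lines. Across the 47 measured genes, the highest level lay in rag2_GFP for 17, lck_GFP for 12, cd41_GFPlow for 7, lck_GFP_rag1 for 5, mpx_EGFP for 4 and Runx123_GFP for 2. As a share, 4.26% had their highest level in Runx123_GFP against 20.4% of all 12660 measured genes, and 36.2% in rag2_GFP against 24.1%. The shares were 25.5% against 16.3% in lck_GFP and 10.6% against 16.3% in lck_GFP_rag1. They lay closer together in cd41_GFPlow, at 14.9% against 12.05%, and in mpx_EGFP, at 8.51% against 10.9%.

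**Figure D1:**
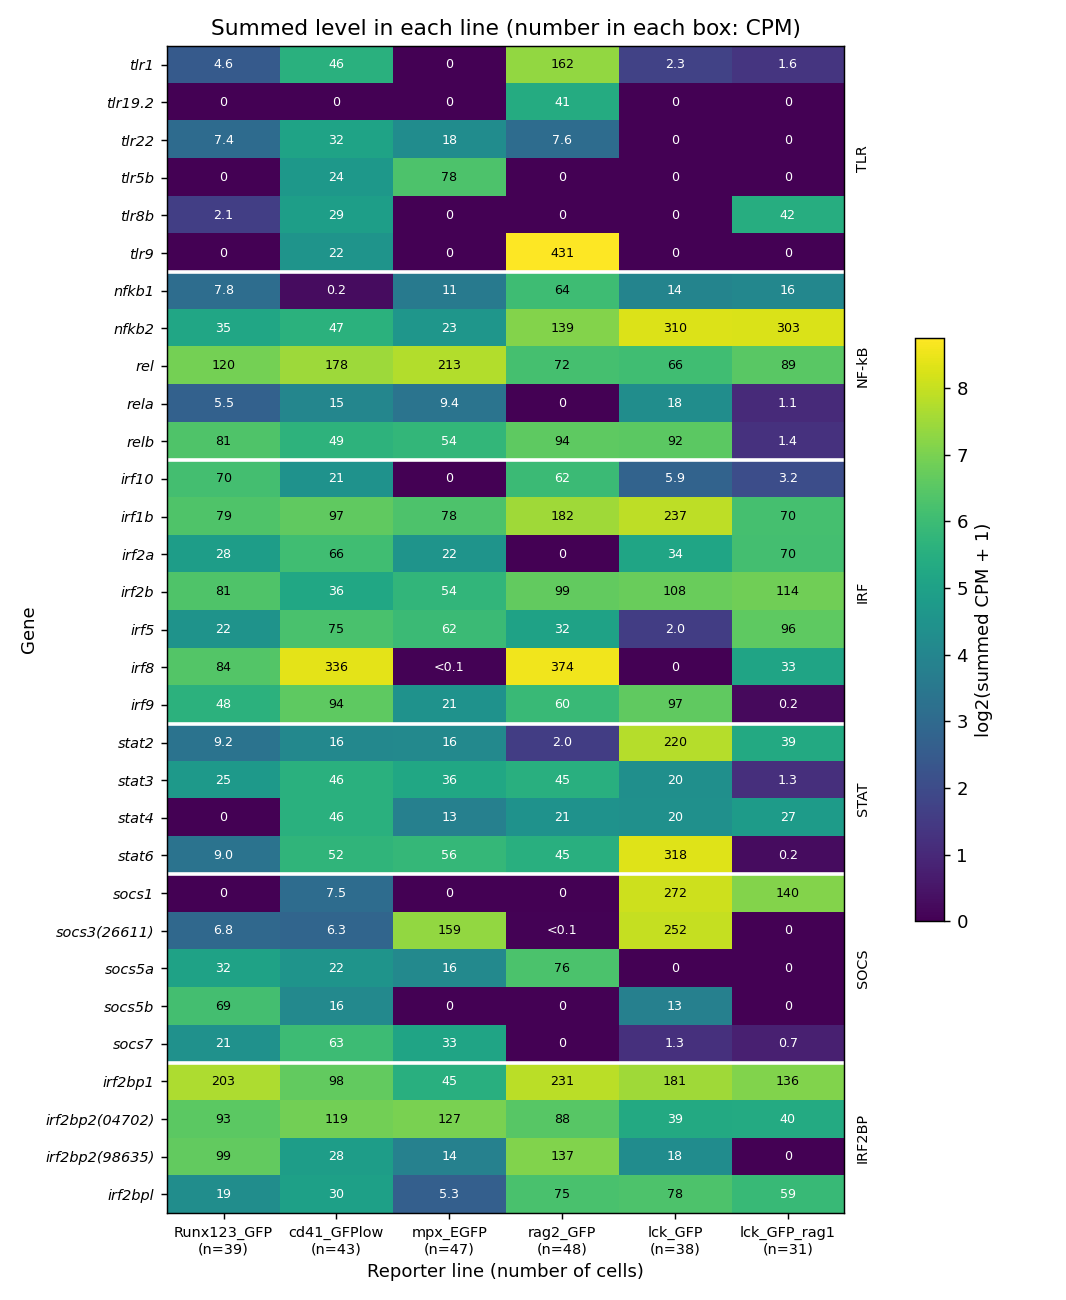
Summed level of the 31 genes given in full (rows, by family) in the 6 reporter lines (columns, with the number of cells), coloured by log2(CPM + 1) with the CPM in each box. A number in parentheses after a symbol is the end of the Ensembl identifier where 1 symbol names several rows. tlr9 at 431 CPM stands out in rag2_GFP, socs1 at 272 and 140 CPM in the lck lines, and irf8 at 336 and 374 CPM in cd41_GFPlow and rag2_GFP.

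Toll-like receptors were found mainly in rag2_GFP and cd41_GFPlow cells. A receptor of the family was present in 29 of 48 rag2_GFP and 22 of 43 cd41_GFPlow cells, against 11 of 47 mpx_EGFP, 4 of 39 Runx123_GFP, 2 of 38 lck_GFP and 2 of 31 lck_GFP_rag1 cells. The summed level of the family was 833 CPM in rag2_GFP, 255 CPM in cd41_GFPlow, 117 CPM in mpx_EGFP, 67.5 CPM in Runx123_GFP, 52.2 CPM in lck_GFP_rag1 and 10.7 CPM in lck_GFP. In rag2_GFP most cells with a receptor had 1 alone: 21 cells had 1, 8 cells had more, up to 3, and 19 had none.

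tlr9 (ENSDARG00000044490), the endosomal receptor for unmethylated DNA, had the highest level of the family. Its level was 431 CPM (95% interval 424 to 438) in rag2_GFP and 22.1 CPM in cd41_GFPlow, with no read in the other 4 lines. It was found in 13 of 48 rag2_GFP cells, 27.1% (15.3 to 41.8%), where the cells that had it ranged from 82.0 to 4463 CPM with a median of 1008 CPM. All 13 met the B cell list, as did 45 of the 48 cells of the line. In cd41_GFPlow 3 of 43 cells had it, and 1 of them gave 86.7% of the reads. For 0 of 38 lck_GFP cells on the same plate, the count allows a share of up to 7.89%.

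tlr19.2 (ENSDARG00000070392), of a group of Toll-like receptors found in fish, had 41.1 CPM in rag2_GFP, in 8 of 48 cells, and no read in any other line. Its neighbours in name, tlr19.1 at 25 CPM and tlr20.4 at 21.9 CPM, were each found in 3 rag2_GFP cells and had at most 1 read outside the line, and tlr20.2 reached 1.61 CPM there in 3 cells. How alike these 4 genes are in sequence was not checked. How reads that fit several genes were counted is not given in the sources used here, so the split of reads between them is uncertain. None of the 3 genes tlr19.1, tlr20.2 and tlr20.4 was the only receptor of a cell.

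The receptors for bacterial lipopeptides and single-stranded RNA rested on few rag2_GFP cells. tlr1, which in mammals pairs with TLR2, had 162 CPM there from 2 cells and 45.7 CPM in cd41_GFPlow from 6 cells, with 4.60 CPM or less elsewhere. tlr7 had 54.9 CPM in rag2_GFP, also from 2 cells, of which 1 gave 99.8% of the reads. tlr3, the receptor for double-stranded RNA, was found in 10 cells across 5 lines at 6.10 to 50.4 CPM and had no read in lck_GFP.

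Other receptors, tlr5b, tlr22 and tlr8b, had their highest levels outside rag2_GFP. Of those above, tlr1, tlr7 and tlr9 were also found in cd41_GFPlow. tlr5b (ENSDARG00000052322), which recognises bacterial flagellin, had 78.0 CPM (74.5 to 81.7) in mpx_EGFP, in 7 of 47 cells, and 24.2 CPM in cd41_GFPlow, in 4 of 43, and no read in the other 4 lines. tlr22, a receptor found in fish, had 32.5 CPM in cd41_GFPlow, in 8 cells, 17.9 CPM in mpx_EGFP, in 3 cells, 7.57 CPM in rag2_GFP, 7.37 CPM in Runx123_GFP and no read in either lck line. tlr8b, related to the receptors for single-stranded RNA, had 29.2 CPM in cd41_GFPlow, in 8 cells, 2.07 CPM in Runx123_GFP and 42.4 CPM in lck_GFP_rag1. The last value came from 2 of 31 cells, of which 1 gave 85.0% of the reads.

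The adaptors and kinases downstream were spread more widely. unc93b1, the chaperone that carries nucleic acid receptors to endosomes, had 293 CPM in rag2_GFP, 63.8 CPM in cd41_GFPlow, 25 CPM in mpx_EGFP, 16.6 CPM in Runx123_GFP, 6.87 CPM in lck_GFP_rag1 and none in lck_GFP. In rag2_GFP it was found in 5 cells, of which 1 also had tlr9. myd88, the adaptor shared by most receptors, had 160 CPM in lck_GFP_rag1, 149 CPM in lck_GFP, 126 CPM in rag2_GFP, 104 CPM in mpx_EGFP, 41.7 CPM in cd41_GFPlow and 12.9 CPM in Runx123_GFP, so it was present in the lck lines where few receptors were. Of the list of 12 adaptors and kinases, by the 4-fold rule given with the line comparisons 2 were higher in rag2_GFP (sarm1 and unc93b1) and 3 lower, against 15.9% and 39.2% of all genes. In lck_GFP 0 were higher and 5 lower, against 8.64% and 47.2%, so these counts lie near or below the background. irak3, an inhibitory kinase of this path in mammals, had 277 CPM in lck_GFP_rag1 and 223 CPM in rag2_GFP, and 60.6 CPM or less in the other lines.

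Among the NF-kB genes, rel and nfkb2 showed different patterns. rel (ENSDARG00000055276), the c-Rel subunit, had 213 CPM in mpx_EGFP, 178 in cd41_GFPlow, 120 in Runx123_GFP, 89.4 in lck_GFP_rag1, 71.5 in rag2_GFP and 65.7 in lck_GFP. It was found in 21 of 43 cd41_GFPlow and 19 of 47 mpx_EGFP cells, and in 5 to 7 cells of each other line. nfkb2, the p100 precursor of the alternative pathway, had 310 CPM in lck_GFP, 303 CPM in lck_GFP_rag1, 139 CPM in rag2_GFP and 47.3 CPM or less elsewhere. The levels in lck_GFP, lck_GFP_rag1 and rag2_GFP came from 4, 5 and 6 cells, and 6 cd41_GFPlow cells also had the gene. In lck_GFP_rag1 1 cell gave 59.1% of the reads. map3k14a, the kinase that starts p100 processing, was also highest in lck_GFP, at 507 CPM in 10 cells, against 168 CPM in rag2_GFP and 95.8 CPM in lck_GFP_rag1.

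The other 3 subunits were lower or sparser. relb, the partner of the processed p100, had 49.0 to 94.0 CPM in 5 lines and 1.40 CPM in lck_GFP_rag1. nfkb1, the p105 precursor, had 64.3 CPM in rag2_GFP, from 3 cells, and 0.209 to 15.7 CPM elsewhere. rela, the p65 subunit, stayed at 18.5 CPM or less and had no read in rag2_GFP. nfkbiab, an inhibitor that holds NF-kB in the cytoplasm, had 944 CPM in rag2_GFP, 570 in lck_GFP_rag1, 495 in lck_GFP, 435 in mpx_EGFP, 143 in Runx123_GFP and 92.0 in cd41_GFPlow. tnip1, which limits NF-kB signalling in mammals, had 755 CPM in lck_GFP_rag1 and at most 159 CPM elsewhere.

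irf8 (ENSDARG00000056407) was present in some lines and nearly absent from others. Its level was 374 CPM (367 to 380) in rag2_GFP, 336 CPM (331 to 341) in cd41_GFPlow, 84.1 CPM in Runx123_GFP and 33.2 CPM in lck_GFP_rag1. A single read was found in mpx_EGFP and none in lck_GFP. The gene was present in 15 of 43 cd41_GFPlow cells, 34.9% (21 to 50.9%), and 12 of 48 rag2_GFP cells, 25% (13.6 to 39.6%), intervals that overlap. All 12 rag2_GFP cells met the B cell list, as did 45 of the 48 cells of the line, and 4 of the 12 also had tlr9. The 2 Runx123_GFP cells and the 1 lck_GFP_rag1 cell with irf8 each met the monocyte and macrophage list. In these lines 2 of 39 and 3 of 31 cells met that list. None of the 12 rag2_GFP cells met it, in a line where 1 of 48 cells did. No mpx_EGFP cell of 47 reached 10 CPM, which allows a share of up to 6.38%.

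**Figure D2:**
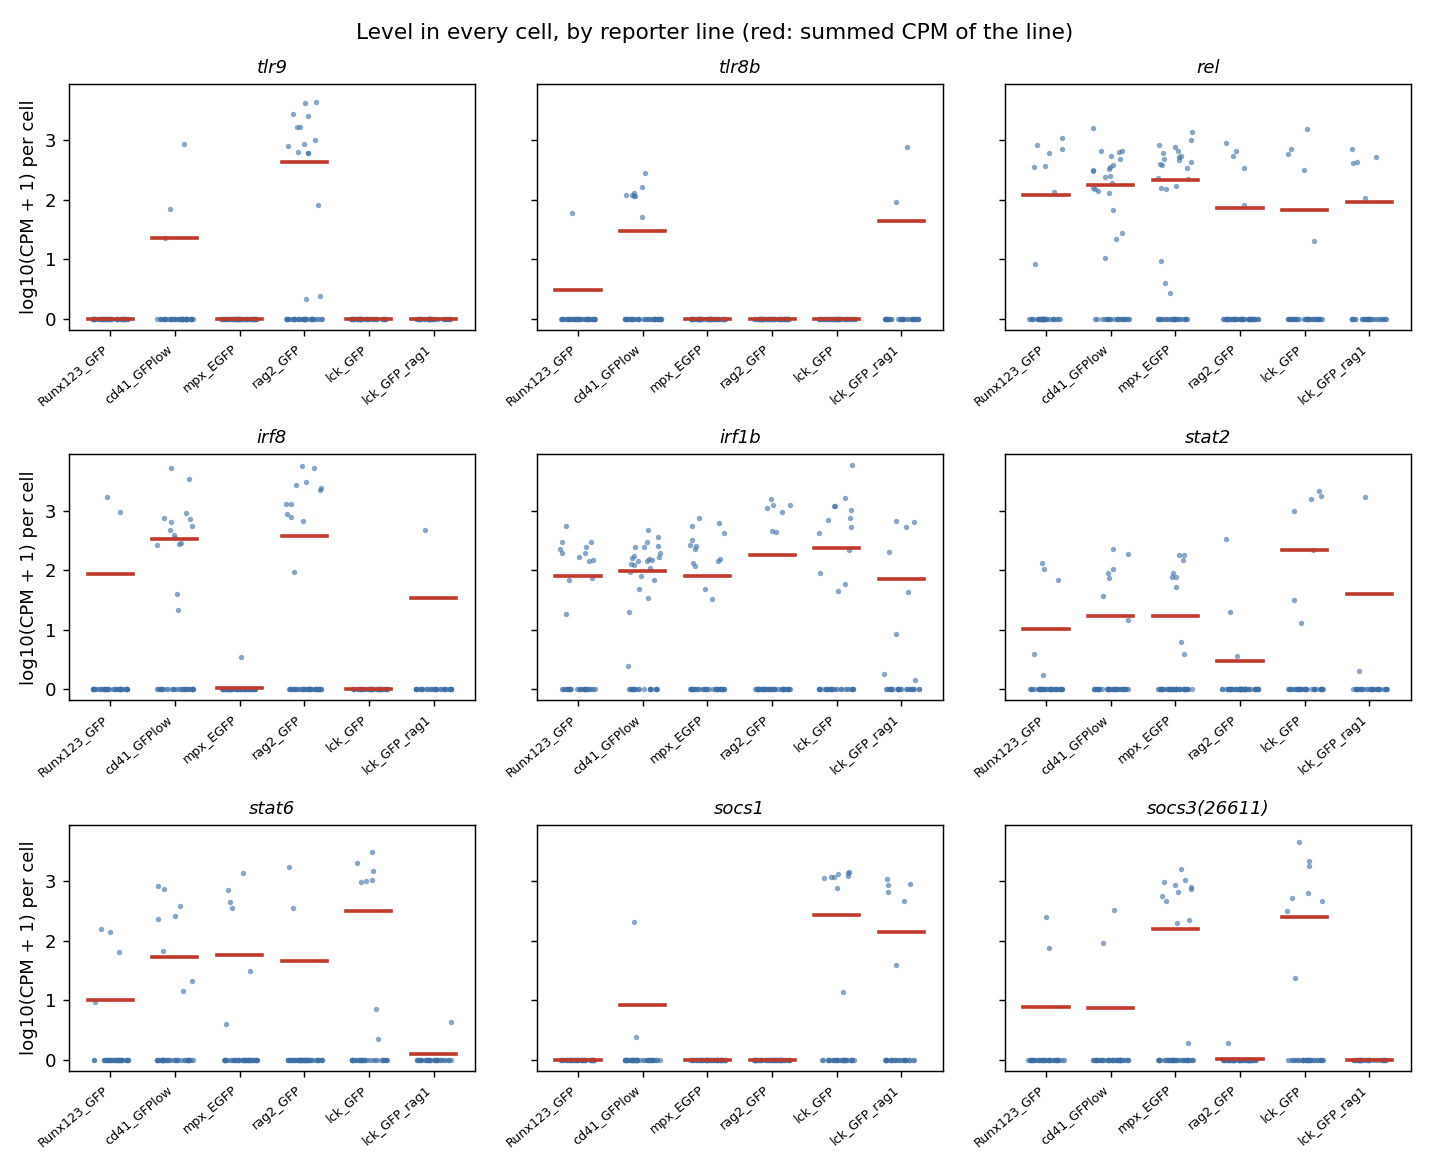
Level of 9 genes in each of the 246 cells (points, log10(CPM + 1), jittered sideways) by reporter line, with the summed CPM of the line as a red bar. Most cells lie at 0 in every panel, so a line's level comes from few cells: 13 rag2_GFP cells for tlr9, 12 rag2_GFP and 15 cd41_GFPlow cells for irf8, and 9 lck_GFP and 6 lck_GFP_rag1 cells for socs1.

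irf1b (ENSDARG00000043249), a factor induced by interferon, was among the genes found in every line. It had 237 CPM in lck_GFP, 182 in rag2_GFP, 96.6 in cd41_GFPlow, 79.3 in Runx123_GFP, 78.2 in mpx_EGFP and 70.4 in lck_GFP_rag1, and 75 of the 246 cells had it, 23 of them in cd41_GFPlow. Its copy irf1a was found in 2 cells. irf2b, which in mammals opposes IRF1, had 36.5 to 114 CPM in the 6 lines, while its copy irf2a had 22.2 to 69.9 CPM in 5 lines and no read in rag2_GFP.

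irf5, linked in mammals to inflammatory macrophages, had 95.6 CPM in lck_GFP_rag1, 75.2 in cd41_GFPlow, 62.2 in mpx_EGFP, 32.1 in rag2_GFP, 21.7 in Runx123_GFP and 2.00 in lck_GFP. The first value rests on 1 cell with 86.9% of the reads, and cd41_GFPlow and mpx_EGFP had it in 8 and 9 cells. irf9, the DNA-binding subunit of the complex that carries type I interferon signals, had 97.4 CPM in lck_GFP, from 2 cells, and 94.1 CPM in cd41_GFPlow, from 13, and 0.164 CPM in lck_GFP_rag1. irf10, a member that fish and birds have, reached 70.2 CPM in Runx123_GFP and 61.6 CPM in rag2_GFP, the latter from a single cell. The factors that induce interferon in mammals were scarce: irf3 had 14.2 CPM in 4 cd41_GFPlow cells and irf7 43.3 CPM in 3 mpx_EGFP cells. irf4, a lymphocyte factor in mammals, had 42 CPM in 4 lck_GFP_rag1 cells and at most 7.86 CPM elsewhere, and irf4b came from 1 cell in each of 3 lines.

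The IRF2-binding proteins act as co-repressors in mammals. irf2bp1 and the irf2bp2 gene ENSDARG00000004702 were widespread, in 57 and 87 of the 246 cells. irf2bpl was in 13 cells, and its levels of 78.3 CPM in lck_GFP and 75.4 CPM in rag2_GFP came from 1 cell each. irf2bp1 had 231 CPM in rag2_GFP, 203 in Runx123_GFP, 181 in lck_GFP, 136 in lck_GFP_rag1, 98.4 in cd41_GFPlow and 45.4 in mpx_EGFP. The irf2bp2 gene ENSDARG00000004702 was in the largest share of cells of any of the 56 genes in a line, 29 of 43 cd41_GFPlow cells or 67.4%, and in 27 of 47 mpx_EGFP cells, at 119 and 127 CPM. The irf2bp2 gene ENSDARG00000098635 had another order, with 137 CPM in rag2_GFP, 98.6 CPM in Runx123_GFP, 28.3 CPM or less in the next 3 lines and no read in lck_GFP_rag1. Of 87 and 23 cells with these genes, 8 had both. In Runx123_GFP, irf2bp1 was in 13 of 25 cells that met the progenitor list and 3 of 14 others, and in cd41_GFPlow in 13 of 21 and 4 of 22. Cells that met this list also had more detected genes, by median 2385 against 1896 in Runx123_GFP and 2983 against 2462.5 in cd41_GFPlow. Their median reads were higher too, 1122340 against 523712 in Runx123_GFP and 1286100 against 1037730 in cd41_GFPlow. The part of these in the result was not tested. How the other genes split by this list is not reported here.

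stat2, a factor of type I interferon signalling, had 220 CPM in lck_GFP, in 7 of 38 cells, 38.8 CPM in lck_GFP_rag1, from 1 cell, and 2.02 to 16.3 CPM elsewhere. stat6 (ENSDARG00000015902), the factor of interleukin-4 signalling, had 318 CPM (311 to 326) in lck_GFP, in 6 cells at 960 to 3114 CPM. The other lines had 44.6 to 55.9 CPM in rag2_GFP, cd41_GFPlow and mpx_EGFP, 9.01 CPM in Runx123_GFP and 0.234 CPM in lck_GFP_rag1. stat3, which carries interleukin-6 and G-CSF signals, had 45.9 CPM in cd41_GFPlow, 45.2 in rag2_GFP, 36 in mpx_EGFP, 24.8 in Runx123_GFP, 19.8 in lck_GFP and 1.29 in lck_GFP_rag1. stat4, the factor of interleukin-12 signalling, had 46.2 CPM in cd41_GFPlow, in 6 cells, 13 to 27 CPM in 4 lines from 1 or 2 cells each, and no read in Runx123_GFP.

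Of the 5 JAK kinases, jak2a was called higher in rag2_GFP and jak3 in lck_GFP_rag1, where the rule called 15.9% and 8.59% of all genes higher, and 3 were lower in mpx_EGFP, against 39.2%. jak1 was in every line at 166 CPM in mpx_EGFP to 672 CPM in lck_GFP_rag1. jak3, the kinase of the shared gamma chain, had 467 CPM in lck_GFP_rag1, in 10 of 31 cells, 168 CPM in rag2_GFP from 2 cells, 47.5 CPM in Runx123_GFP and 4.69 to 8.88 CPM in the other 3 lines. jak2a had 396 CPM in rag2_GFP, in 13 of 48 cells, and 1.51 CPM in mpx_EGFP. il2rb, a receptor chain of interleukins 2 and 15 and one of the natural killer list's genes, was in 20 of 31 lck_GFP_rag1 cells at 742 CPM and in 7 lck_GFP cells at 84.3 CPM. il6r was highest in mpx_EGFP, 681 CPM in 30 of 47 cells. mpl, the thrombopoietin receptor and one of the thrombocyte list's genes, was highest in Runx123_GFP, 861 CPM in 17 of 39. Of the 12 receptors measured, 2 were higher and 7 lower in mpx_EGFP, against 6.03% and 39.2% of all genes. The 2 higher were il6r and csf3r, and csf3r is one of the neutrophil list's genes. In lck_GFP 2 were higher and 7 lower, against 8.64% and 47.2%, and in rag2_GFP 0 and 7, against 15.9% and 39.2%.

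The suppressor genes were divided by line. socs1 (ENSDARG00000038095), an inhibitor of JAK kinases, had 272 CPM (265 to 279) in lck_GFP and 140 CPM (136 to 144) in lck_GFP_rag1, 7.48 CPM in cd41_GFPlow from 1 cell, and no read in Runx123_GFP, mpx_EGFP or rag2_GFP. It was in 9 of 38 lck_GFP cells, 23.7% (11.4 to 40.2%), and in 6 of 31 lck_GFP_rag1 cells, 19.4% (7.45 to 37.5%), and the intervals overlap. For 0 of 48 rag2_GFP cells the count allows up to 6.25%. No cell gave more than 30.6% of the reads in either lck line.

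The socs3 gene ENSDARG00000026611, which in mammals restrains G-CSF and interleukin-6 signals, had 252 CPM in lck_GFP and 159 CPM in mpx_EGFP, 6.78 CPM in Runx123_GFP, 6.31 CPM in cd41_GFPlow, 1 read in rag2_GFP and none in lck_GFP_rag1. It was in 11 of 47 mpx_EGFP cells, 23.4% (12.3 to 38%), with 16.4% of reads from the top cell. In lck_GFP it was in 8 of 38 cells, but 1 cell gave 56.6% of the reads, and without each line's top cell the order was 135 CPM in mpx_EGFP and 113 CPM in lck_GFP. The socs3 gene ENSDARG00000025428 reached 10 CPM in 1 cell of the series. cish, a SOCS-related inhibitor outside the symbol rule, had 175 CPM in lck_GFP, from 4 cells, 19.1 CPM in Runx123_GFP, from 6 cells, and 0.293 CPM or less elsewhere.

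A few less studied members had their highest levels in different lines, and each was also found in other lines. socs5b had 69.5 CPM in Runx123_GFP, in 10 of 39 cells, 16.3 CPM in cd41_GFPlow, 12.9 CPM in lck_GFP from 1 cell and no read in the other 3. socs7 had 62.7 CPM in cd41_GFPlow, in 11 of 43 cells, 33.2 CPM in mpx_EGFP, 20.7 CPM in Runx123_GFP from 1 cell and 1.35 CPM or less in the lymphoid lines. socs5a had 75.8 CPM in rag2_GFP from 2 cells, 16.4 to 31.9 CPM in Runx123_GFP, cd41_GFPlow and mpx_EGFP, and no read in either lck line. Of the 16 and 14 cells with socs5b and socs5a, 1 had both.

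cd41_GFPlow was the line whose cells could be split by the monocyte and macrophage list, 17 meeting it and 26 not. irf8 was in 14 of the 17, 82.4% (56.6 to 96.2%), and in 1 of the 26, 3.85% (0.0973 to 19.6%), with levels of 824 and 1.80 CPM. rel was in 15 of 17, 88.2% (63.6 to 98.5%), and in 6 of 26, 23.1% (8.97 to 43.6%). tlr8b was in 8 of 17, 47.1% (23 to 72.2%), and in 0 of 26, which allows a share of up to 11.5%, and all 8 cells with tlr8b also had irf8. Of the 29 genes given in full that were found in the line, 19 were in a larger share of list cells, and for these 3 alone the intervals of both shares did not overlap. The same split was not made for all genes. These counts therefore have no background beside them, and nothing particular to these families is read from them. None of the 56 genes is on the list. Median detected genes were 2903 in the list cells and 2655 in the others, and median reads 1217780 and 1069970. What part these have in the split was not tested. irf1b went the other way in value, at 7 of 17 and 16 of 26 cells, with overlapping intervals.

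**Figure D3:**
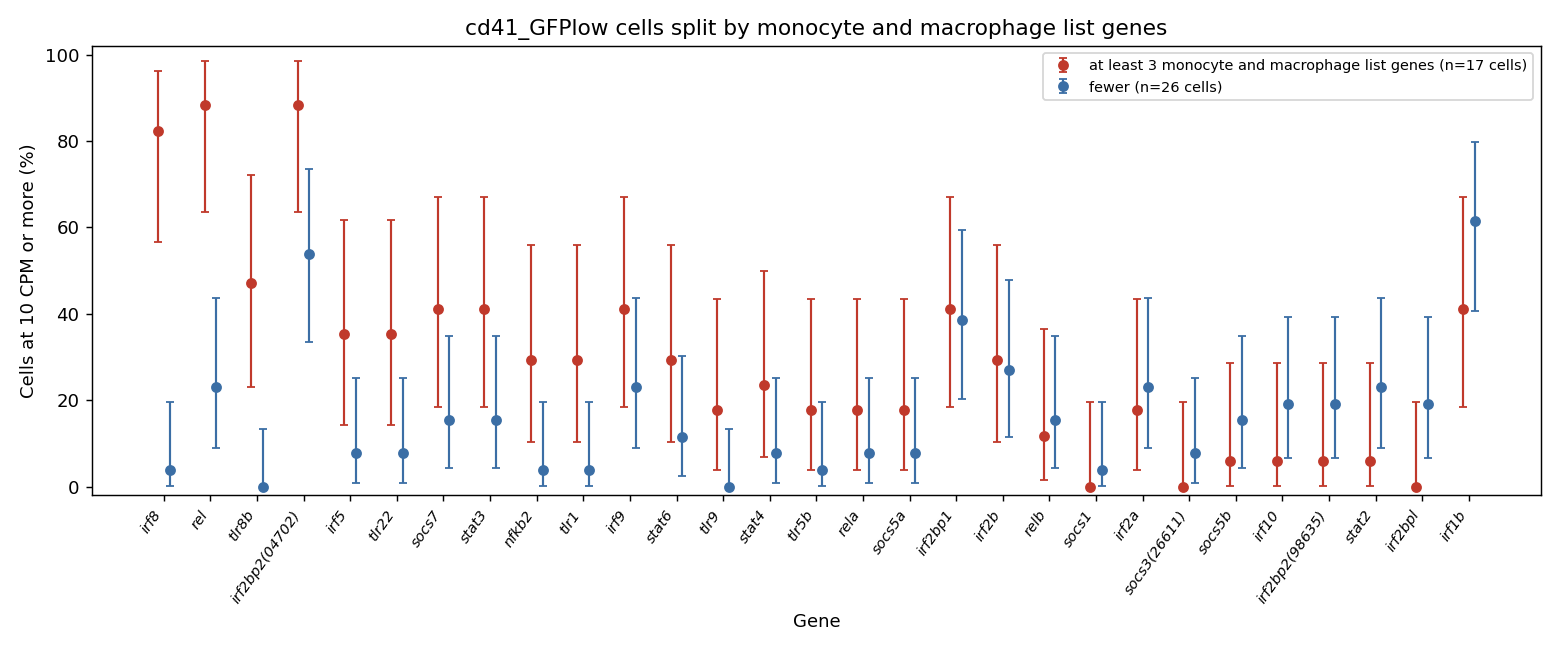
Share of cd41_GFPlow cells at 10 CPM or more (vertical axis, percent, with 95% Clopper-Pearson intervals) for the 29 genes given in full that were found in the line, in 17 cells with at least 3 monocyte and macrophage list genes (red) and 26 cells with fewer (blue), ordered by the difference. The intervals stand apart for irf8, rel and tlr8b.

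For differences between lines, a gene was called where the 2 values of log2(CPM + 1) were at least 2 apart, that is 4-fold, and 1 of the lines compared had 10 CPM. This is a rule of size, not a test. The reference of a line was the mean of the other 5 lines, so a gene high in 1 line lowers the ratios of the others. The share of all genes called by the same rule is given beside the counts. A gene that reaches 10 CPM in other lines alone can hardly be called anything but lower in the line at hand, so counts of lower genes, and of higher genes measured in 1 line alone, are descriptions from which nothing about a family is read.

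In rag2_GFP, 13 of the 47 genes were higher, 27.7% against 15.9% of all 12660 genes, and 13 were lower, against 39.2% of all genes. The higher genes were 8 Toll-like receptors (tlr1, tlr2, tlr5a, tlr7, tlr9, tlr19.1, tlr19.2 and tlr20.4), irf8, nfkb1, socs1b, socs5a and 1 irf2bp2 gene. Of these, tlr19.1, tlr19.2 and tlr20.4 were measured through rag2_GFP alone, so the 27.7% includes genes that could only be called higher. tlr1, tlr5a, tlr7, socs1b and socs5a were in 2 rag2_GFP cells each, and tlr2, tlr19.1, tlr20.4 and nfkb1 in 3 each. tlr9 had a log2 ratio of 6.31, and irf8 one of 2.03, just past the threshold. In lck_GFP 6 genes were higher, against 8.64% of all genes, among them socs1, socs3, stat2, stat6 and irf4b. The 20 lower genes were 42.6% against 47.2% of all genes. No Toll-like receptor reached 10 CPM in lck_GFP, so each one measured was measured through another line. In lck_GFP_rag1 2 genes were higher, irf4 and tlr8b, against 8.59%, and 27 were lower, 57.4% against 49.7%. irf4 was measured through this line alone, and tlr8b was in 2 of its cells.

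cd41_GFPlow had 4 higher, irf3, socs7, tlr21 and tlr22, against 6.43% of all genes, and 8 lower, against 20.9%. Of the higher genes, irf3 and tlr21 were measured through this line alone. mpx_EGFP had 2 higher, tlr5b and irf7, against 6.03%, and 19 lower, 40.4% against 39.2%. Runx123_GFP had 1 higher, socs5b, against 11.3%, and 18 lower, 38.3% against 25.3%. Among the 18 were stat2, stat4 and stat6, each below 10 CPM in the line. The median log2 ratio of the 47 genes in Runx123_GFP was -1.34, and that of all genes -0.22.

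lck_GFP and rag2_GFP shared a plate. Of 39 genes measured in the pair, 9 were higher in lck_GFP, 23.1% against 23.5% of all 8829 genes, and 16 lower, 41% against 37.6%, so the counts lie near the background. Of 7 SOCS genes, 4 were higher in lck_GFP (socs1, socs3, socs5b and a socs6 gene) and 2 lower (socs5a and the other socs6 gene). socs5b and the higher socs6 gene were in 1 lck_GFP cell each, and the 2 lower genes in 2 rag2_GFP cells each. socs1 had no read in rag2_GFP and was 2874-fold higher in lck_GFP when set against a floor of 3 reads. stat2 was 109-fold higher (85.0 to 141) and stat6 7.13-fold higher (6.74 to 7.56). In cells of at least 1000 detected genes the log2 ratio of stat6 turned to -3.38. In all cells tlr9 and irf8 had no read in lck_GFP and were 3306-fold and 2867-fold lower against the same floor of 3 reads. These 3 folds against a floor count reads and not cells. The few cells of each line leave room for much smaller folds.

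Between the lck lines, 12 of 30 genes were higher in lck_GFP, 40% against 31% of all 7812 genes, and 5 lower, 16.7% against 30%. This did not hold in cells of at least 1000 detected genes. There, of 27 genes measured, 33.3% were higher against 31.2% of all genes, and 44.4% lower against 35.9%. Among the 12 were stat2, stat3, stat6, 4 SOCS genes, rela, relb, irf9 and an irf2bp2 gene. Of the SOCS genes, socs1b, socs5b and a socs6 gene were in 1 lck_GFP cell each. rela, irf9 and the irf2bp2 gene were in 2 lck_GFP cells each. stat6, with 10 reads in all in lck_GFP_rag1, was 1362-fold higher (740 to 2841), but in cells of at least 1000 detected genes its levels were 0.762 CPM and, in lck_GFP_rag1, 0.332 CPM. All 6 lck_GFP cells that had it were below 1000 genes. The 5 lower genes were irf4, irf5, irf8, tlr8b and a socs6 gene. In lck_GFP_rag1 irf8 and this socs6 gene were in 1 cell each, tlr8b in 2, irf5 in 3 and irf4 in 4. socs1 and nfkb2 were not called. The similar sums of nfkb2 came from different cells. In cells of at least 1000 detected genes it had 0.508 CPM in lck_GFP and 431 CPM in lck_GFP_rag1. In cells with fewer genes it had 470 CPM in lck_GFP and no read in lck_GFP_rag1. The lck lines were on different plates.

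For Runx123_GFP against cd41_GFPlow, 1 of 38 genes was higher, against 14.8% of all 9813 genes, and 12 were lower, 31.6% against 14.4%. The higher gene was socs5b, at 4.25-fold (3.92 to 4.61). Among the lower genes were stat4, stat6, irf3, a socs6 gene and Toll-like receptors. tlr3 was the only receptor of the family at 10 CPM in Runx123_GFP, and it was not called. irf8 was not called, at 84.1 and 336 CPM. With a filter of 50 CPM, 17 genes were measured and 2 were lower, 11.8% against 9.11% of all genes.

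The levels in rag2_GFP and the lck lines moved with the number of detected genes. Cells with at least 1000 detected genes were 10 of 48 in rag2_GFP, 12 of 38 in lck_GFP and 18 of 31 in lck_GFP_rag1, against 31 of 39 in Runx123_GFP, 41 of 43 in cd41_GFPlow and 45 of 47 in mpx_EGFP. irf8 had 73.2 CPM in the 10 rag2_GFP cells, with 1 cell having it, and 519 CPM in the 38 cells under 1000 genes, with 11. tlr9 had 161 CPM in 2 of the 10 and 561 CPM in 11 of the 38. stat6 in lck_GFP had 0.762 CPM in the 12 cells and 483 CPM in 6 of the other 26. socs1 did not follow this, with 292 CPM in 3 of the 12 and 261 CPM in 6 of the 26. With only cells of at least 1000 genes in every line, rag2_GFP had 5 higher genes of 44 measured, 11.4% against 18.1% of all genes, and 24 lower, 54.5% against 52.9%. The share of higher genes was then below that of all genes, where with all cells it was above. The log2 ratio of irf8 in rag2_GFP was then -0.40, that of nfkb1 -3.28 and that of tlr1 -3.56, and that of stat6 in lck_GFP was -4.02. What part the number of detected genes has in these levels was not tested.

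**Figure D4:**
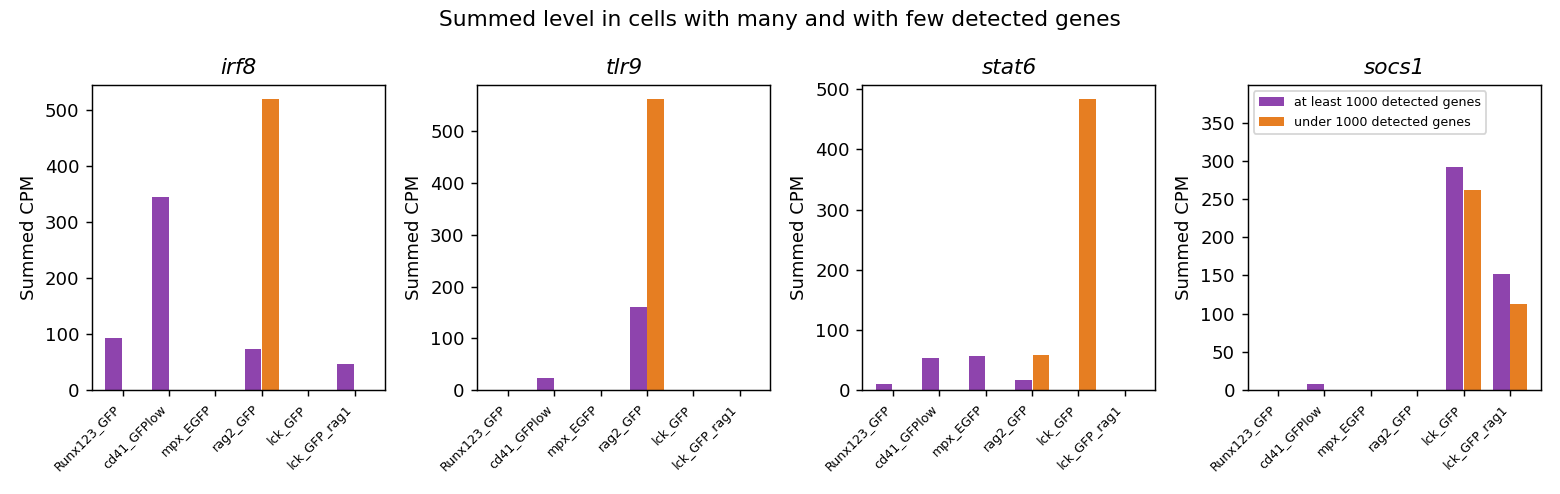
Summed CPM (vertical axis, separate scale for each panel) of irf8, tlr9, stat6 and socs1 in each line, from cells with at least 1000 detected genes (purple) and cells with fewer (orange). In rag2_GFP irf8 is at 73.2 and 519 CPM and in lck_GFP stat6 is at 0.762 and 483 CPM, while socs1 in lck_GFP is at 292 and 261 CPM.

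Counted per cell, the median number of the 56 genes at 10 CPM was 7 in cd41_GFPlow, 4 in Runx123_GFP, 4 in mpx_EGFP, 3 in rag2_GFP, 3 in lck_GFP and 2 in lck_GFP_rag1, with a highest count of 18 in a cd41_GFPlow cell. The medians were unchanged in cells thinned to 200000 reads. Set against all genes at 10 CPM in a cell, the order was different: 4.24 of the genes per 1000 in rag2_GFP, 3.61 in lck_GFP, 3.40 in cd41_GFPlow, 2.95 in lck_GFP_rag1, 2.91 in mpx_EGFP and 2.2 in Runx123_GFP.

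Interferons were sparse, while 15 of the 21 interferon-stimulated genes found in the table were measured. Of 5 interferon genes found in the table only ifnphi1 was measured, at 32.4 CPM in lck_GFP and 21.8 CPM in rag2_GFP, each from 1 cell, and at 8.63 CPM in 4 cd41_GFPlow cells. Of 15 measured interferon-stimulated genes, 2 were higher and 10 lower in mpx_EGFP, against 6.03% and 39.2% of all genes, 3 and 4 in lck_GFP, against 8.64% and 47.2%, and 1 and 1 in cd41_GFPlow, against 6.43% and 20.9%. The counts were 2 and 7 in Runx123_GFP, against 11.3% and 25.3%, 1 and 7 in rag2_GFP, against 15.9% and 39.2%, and 2 and 7 in lck_GFP_rag1, against 8.59% and 49.7%. trim25, which activates RNA sensing, was in every line at 40.4 to 244 CPM. isg15, a ubiquitin-like protein that interferon induces, had 197 CPM in rag2_GFP from 1 cell and 79.5 CPM in cd41_GFPlow from 6 cells. isg20, an RNA nuclease, had 124 CPM in lck_GFP_rag1 from 2 cells, 116 CPM in cd41_GFPlow from 12, and no read in mpx_EGFP, where isg15 also had none.

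Of the other lists, 11 cytokine-pathway inhibitors outside the SOCS family had 3 higher and 6 lower in lck_GFP, against 8.64% and 47.2% of all genes, and 3 higher and 3 lower in rag2_GFP, against 15.9% and 39.2%. ptpn6, a phosphatase that acts on these receptors, was in every line, from 83.8 CPM in Runx123_GFP to 947 CPM in lck_GFP_rag1. Of 6 measured genes of cytosolic nucleic acid sensing, 2 were higher and 1 lower in lck_GFP and 0 were higher and 3 lower in rag2_GFP, where the shares of all genes are the same as just given. tbk1, the kinase that activates Irf3, had 290 CPM in rag2_GFP and 70.3 to 115 CPM elsewhere. mavs, the mitochondrial adaptor of RNA sensors, had the reverse order, with 163 CPM in lck_GFP_rag1, 95.7 CPM in lck_GFP and 3.91 CPM in rag2_GFP. The 11 measured NF-kB regulators had 2 higher and 1 lower in rag2_GFP, against 15.9% and 39.2% of all genes, and 0 higher and 6 lower in cd41_GFPlow, against 6.43% and 20.9%.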

How the data were processed

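Reads per Ensembl gene were taken from the count table as the authors deposited it, whole-number counts per gene and cell. For their making, featureCounts, Picard and STAR are named in the submitters' processing notes, as is the build GRCz10, without versions or order. How reads that fit several copies of a gene were counted is not given in the sources used here. The labels name no molecular identifiers. Reads and detected genes per cell in the deposited cell table are counts too and equal those of the count table. A table of mapping metrics and the study's droplet data were not used here. Of the columns of the count table, 0 had no sample. All 246 cells were kept.

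Genes were matched by Ensembl identifier to symbols in a table supplied with the data, and 2527 had none. The symbols irf2bp2, socs3 and socs6 each name 2 genes among the 56. Counts were summed per line and scaled to CPM with a pseudocount of 1 CPM. Members, lists and rules were chosen with earlier results of these data known. Of the 99 pathway entries 90 matched, 8 of them by a shared stem, and of the 133 marker entries 112. Some measured genes are not reported here. Genes given in full had 10 CPM in a line and at least 5 cells at 10 CPM in that line; examples from the pathway lists come from the 3 genes of each with the highest level in any line, and genes called by the size rule are named beside some counts. With 1 sample per line there was no test. Cells of list type needed 3 list genes at 10 CPM, and 2 and 4 were tried after seeing the data.

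The size rule was tested on simulated data for cd41_GFPlow against the other 5 lines: it called 100 of 100 genes made 16-fold higher, 100 of 100 made 16-fold lower and 0 of 9444 unchanged genes. Every simulated cell was drawn from the pooled profile of all cells, whereas in the real lines a gene's level often came from few cells. Changes near the 4-fold threshold were not simulated. The result therefore gives no error rate of the rule in the real data. Alternatives used edgeR 4.0.16 TMM factors and DESeq2 1.42.0 size factors (R 4.3.3), computed on line sums. Other steps used Python 3.11.15 with numpy 2.4.6, pandas 2.3.3, scipy 1.17.1 and matplotlib 3.10.9.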

Additional observations from a re-analysis of the deposited data

How the results depend on the processing

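Counts of genes called higher or lower were recomputed under 12 alternatives. With reads thinned to 200000 per cell, the pair Runx123_GFP against cd41_GFPlow had 2 higher instead of 1. The same pair had 0 with TMM factors, DESeq2 size factors, a pseudocount of 5 CPM or cells of at least 1000 genes. It also had 0 without the cell of most reads in each line, and 2 with the mean of per-cell CPM or no filter. In these settings the rule called 9.48 to 15.5% of all genes higher in the pair. The other counts stayed within 1.5 times under both scalings, which moved the median of all genes by up to 0.37 (log2) in mpx_EGFP.

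The filter of 50 CPM left 31 genes measured in each line comparison. In cd41_GFPlow 1 was higher and 4 lower, 3.23 and 12.9% against 2.65 and 18.9% of all genes. mpx_EGFP had 1 and 11, 3.23 and 35.5% against 5.27 and 34.5%. rag2_GFP had 7 and 7, each 22.6%, against 14.9 and 32.6%. lck_GFP_rag1 had 0 and 16, 0 and 51.6% against 9.14 and 41.6%. In Runx123_GFP 10 were lower, 32.3% against 23.8%, and in lck_GFP 11, 35.5% against 41.1%. In the pairs it gave 5 higher and 10 lower (lck_GFP against rag2_GFP), 6 and 1 (lck lines) and 2 lower (Runx123_GFP against cd41_GFPlow). Fewer genes are tested under it. The median of the other lines as reference gave 6 higher and 5 lower in Runx123_GFP, 15 and 2 in cd41_GFPlow, 4 and 11 in mpx_EGFP, 10 and 9 in lck_GFP, and 5 and 16 in lck_GFP_rag1. A pseudocount of 5 CPM gave 2 higher and 5 lower in cd41_GFPlow, 4.26 and 10.6% against 2.96 and 7.80% of all genes. Lower counts were 12 in mpx_EGFP (25.5% against 17.3%) and 7 in rag2_GFP (14.9% against 19.2%). They were 10 in lck_GFP (21.3% against 22.5%) and 17 in lck_GFP_rag1 (36.2% against 24.8%). With this pseudocount the lower interferon-stimulated genes in mpx_EGFP were 5 instead of 10.

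Cells of at least 1000 genes gave 2 higher in Runx123_GFP (4.55% against 12.6% of all genes) and 5 higher in lck_GFP_rag1 (11.4% against 9.57%). cd41_GFPlow had 8 higher and 5 lower, 18.2 and 11.4% against 8.06 and 21.1%. rag2_GFP had 5 and 24, 11.4 and 54.5% against 18.1 and 52.9%. For lck_GFP against lck_GFP_rag1 12 were lower, 44.4% against 35.9%. With the top cell of every gene removed per line, higher counts were 2 in Runx123_GFP, 8 in cd41_GFPlow, 8 in rag2_GFP, 1 in lck_GFP_rag1 and 7 for the lck lines, and 10 were lower for lck_GFP against rag2_GFP. Without the cell of most reads in each line, 3 were lower for the lck lines, 10.7% against 28.5% of all genes. The mean of per-cell CPM gave 1 higher in lck_GFP_rag1, 2.13% against 8.19%. Leaving out the cell over 50% mitochondrial moved no count past 1.5 times.

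Of the log2 ratios recomputed, 13 reversed under an alternative. In cells of at least 1000 genes these were irf8 (-0.40), nfkb1 (-3.28) and tlr1 (-3.56) in rag2_GFP, stat6 in lck_GFP (-4.02), and irf10 (4.20), irf5 (2.77), nfkb1 (0.92) and stat6 (-3.38) for lck_GFP against rag2_GFP. With the top cell removed irf10 in that pair was 1.40. With the median as reference socs1 in cd41_GFPlow was 3.08, and socs3 (0.090), tlr1 (0.74) and tlr8b (1.62) in Runx123_GFP were above 0. The cause was not tested. Shares of cells moved outside their intervals in 8 of 594 recomputed values, and levels did in 415 of 594, since their intervals cover counting error alone. With 2 or 4 list genes in place of 3, irf8 was in 63.6 and 87.5% of monocyte-list cells of cd41_GFPlow, rel in 72.7 and 87.5% and tlr8b in 36.4 and 50%, within the main intervals.

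No paired analysis was possible because the labels name no animals and each line is 1 sample. A planned search for promoter motifs was not run, as no sequence was used here. Each line rests on 31 to 48 cells, so a gene absent from all of them may still be in up to 9.68% of cells (3 of 31).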
